A study of Arabidopsis thaliana with 41 samples.

Results

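The comparison set the *glk* mutant of Arabidopsis thaliana, which lacks the GLK transcription factors, directly against the *Ateaf1-1* mutant, which lacks EAF1, without a wild-type library in between. Each difference is between the mutants as harvested, and how much of it comes directly from the lost factor was not tested. Its members were 3 *glk* and 3 *Ateaf1-1* libraries, which the labels number in the same way, out of 16 RNA-seq libraries in the count table. Of 32865 gene identifiers, 19736 passed the filter on low counts and were tested. All plants were in the Col-0 background and carried no treatment. The *glk* plants have transposon insertions in both GLK1 and GLK2 (the *glk1-1 glk2-1* line). *Ateaf1-1* is 1 genome-edited line, in which a Cas9 deletion fused the tandem genes EAF1A and EAF1B into a chimeric gene with a shifted reading frame. RNA came from rosette leaves 5 and 6, pooled from several plants for each repeat, at about 10 leaves, 5 h after light onset in days of 16 h light and 8 h darkness.

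GLK1 and GLK2 are related transcription factors that switch on nuclear genes for chlorophyll synthesis and for the chlorophyll-binding antenna proteins that collect light for the photosystems. NuA4 is a histone acetyltransferase complex that acetylates histone H4 and the histone variant H2A.Z, and EAF1 is the scaffold on which its modules assemble. Chloroplast proteins come from both genomes: the antenna is nuclear-encoded, while the reaction centres, the chloroplast RNA polymerase and part of the chloroplast ribosome are encoded in the chloroplast itself, and mutants in either pathway are pale.

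Sequences upstream of some genes that the results turn on are shown with short motifs found in them, so that the sequences can be read beside the counts. The windows hold the 250 bases before the gene start in RefSeq (build TAIR10.1), read 5′ to 3′ on the strand of the gene, with matches in capitals on either strand. LHCB2.4 and LHCB4.2 encode antenna proteins that were lower in *glk*, and capitals mark CCAATC, a motif associated with GLK-regulated genes.
LHCB2.4 promoter (chr3:10255656-10255905, plus strand): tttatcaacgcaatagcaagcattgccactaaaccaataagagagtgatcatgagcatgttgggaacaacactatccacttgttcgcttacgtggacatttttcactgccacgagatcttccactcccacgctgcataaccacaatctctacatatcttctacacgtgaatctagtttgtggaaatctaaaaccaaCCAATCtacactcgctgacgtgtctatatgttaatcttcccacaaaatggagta
LHCB4.2 promoter (chr3:2717307-2717556, plus strand): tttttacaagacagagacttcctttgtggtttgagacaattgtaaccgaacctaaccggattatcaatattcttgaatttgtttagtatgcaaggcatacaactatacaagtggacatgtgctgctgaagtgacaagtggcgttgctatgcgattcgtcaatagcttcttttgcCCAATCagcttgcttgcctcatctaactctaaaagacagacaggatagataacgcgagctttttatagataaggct
AT4G17560 (a plastid ribosomal protein of the L19 family) and PSRP2 (a plastid-specific ribosomal protein) were lower in *Ateaf1-1*, and capitals mark TGGGCC or TGGGCT, the core of the site II element.
AT4G17560 promoter (chr4:9779974-9780223, plus strand): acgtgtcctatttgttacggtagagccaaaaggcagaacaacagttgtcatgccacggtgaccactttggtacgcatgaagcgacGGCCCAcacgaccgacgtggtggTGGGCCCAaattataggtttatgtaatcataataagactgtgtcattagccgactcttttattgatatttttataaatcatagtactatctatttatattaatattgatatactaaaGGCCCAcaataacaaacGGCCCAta
PSRP2 promoter (chr3:19341764-19342013, plus strand): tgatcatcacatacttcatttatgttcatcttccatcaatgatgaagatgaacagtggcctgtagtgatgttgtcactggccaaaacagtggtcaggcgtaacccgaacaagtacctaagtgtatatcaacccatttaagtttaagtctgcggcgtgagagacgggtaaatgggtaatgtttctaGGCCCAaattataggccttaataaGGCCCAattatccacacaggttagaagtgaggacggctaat
WRKY62, an immune transcription factor gene, was higher in *Ateaf1-1*, and capitals mark TTGACC or TTGACT, the W-box that WRKY factors bind.
WRKY62 promoter (chr5:352096-352345, minus strand): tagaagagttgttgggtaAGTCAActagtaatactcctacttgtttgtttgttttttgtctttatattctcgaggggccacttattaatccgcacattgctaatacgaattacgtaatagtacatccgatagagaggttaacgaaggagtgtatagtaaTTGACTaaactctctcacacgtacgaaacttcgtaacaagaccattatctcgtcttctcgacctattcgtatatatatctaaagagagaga

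CCAATC lay in the window of 10 of 21 antenna genes (47.6%), against 10.2% of the 27369 nuclear protein-coding genes searched. Only 10.5% of the genes for nuclear plastid ribosomal proteins held it. For the site II core the order was different, with 14 of 38 plastid ribosomal protein genes (36.8%), 4 of 21 antenna genes (19%) and 19.2% of all genes. The lists did not sort by motif and direction alone: of 8 photosystem core genes lower in *glk* 1 held CCAATC (12.5%), and the site II core was in 29.4% of the photosystem core list, 33.3% of the plastid transcription list and 40% of the import, folding and proteolysis list. The W-box core was in 39.2% of all genes lower in *glk* and in 21.3% of those higher in *glk*, against 28.4% of all genes, yet in only 8 of the 34 listed immunity genes. For CCAATC these shares were alike, at 10.7% of genes lower in *glk* and 11% of those higher. CCAATC was also in 25% of the flavonoid and anthocyanin list. Of the other motifs searched, CACGTG lay in 23.8% of antenna genes against 6.5% of all genes, and GATAAG in 19% against 12.3%. LHCB1.4, the antenna gene with the largest difference, held none of these motifs in its window, and neither did LHCB1.1 or LHCB1.2. These are counts of letters in a window and no test was made on them. AT4G17560 was picked for the display for its 5 matches and WRKY62 for its 2. Every gene displayed holds the motif marked in it. LHCB4.3, also lower in *glk*, held no CCAATC, and RPL4 and RPL24, also lower in *Ateaf1-1*, held no site II core.

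**Figure D1:**
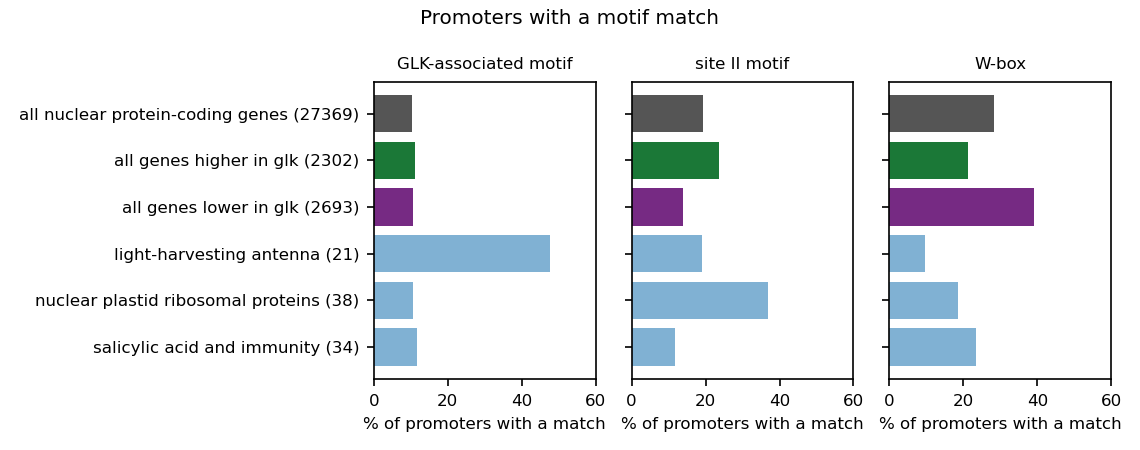
Percentage of windows of 250 bases upstream of the gene start with at least 1 match on either strand to CCAATC (left), TGGGCC or TGGGCT (middle) and TTGACC or TTGACT (right); numbers in brackets are promoters searched. Among the 6 sets drawn, the antenna list has the highest share for CCAATC (47.6%), the plastid ribosomal protein list for the site II core (36.8%) and all genes lower in *glk* for the W-box core (39.2%).

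Each library held between 36614724 and 39339243 counts, and replicates of *glk* correlated with each other at 0.98 on the log2 scale of normalised read counts (CPM, TMM-scaled), *Ateaf1-1* replicates at 0.94 to 0.97, and libraries of different genotypes at 0.77 to 0.83. *Ateaf1-1* replicate 2 stood apart: 40.2% of its counts were from chloroplast genes, against 50.2% and 49.9% in the other two, and 5.30% fell on noncoding RNAs without a gene name, against 1.99% and 1.60%. Chloroplast genes took 61.4%, 64.5% and 62.1% of the counts in *glk*, so the groups did not overlap, and the difference was 15.9 percentage points (p = 0.1, two-sided exact permutation test, the smallest p that 3 against 3 allows). Mitochondrial genes went the other way, with 1.80%, 1.64% and 1.84% in *Ateaf1-1* and 0.95%, 0.83% and 0.89% in *glk* (p = 0.1, exact permutation test). In whole-leaf RNA, fewer cells of a type and less RNA per cell cannot be told apart.

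**Figure D2:**
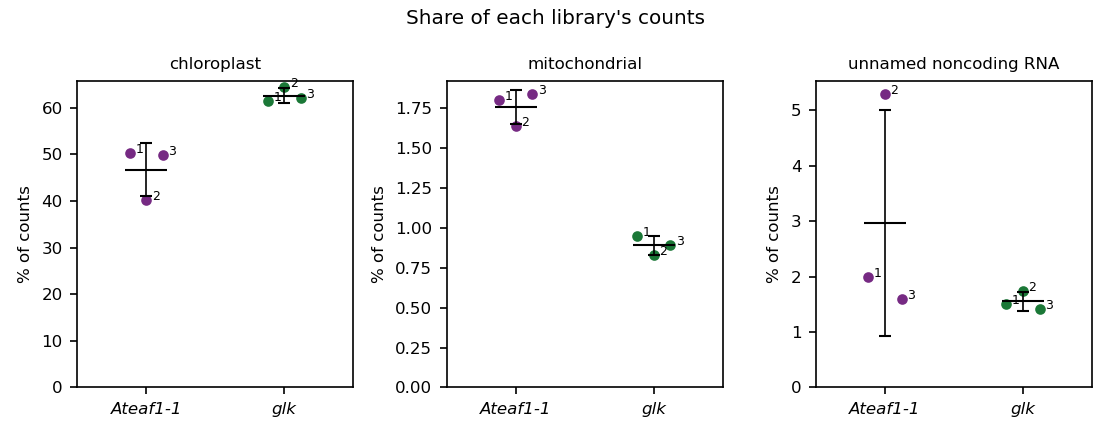
Percentage of each library's counts on chloroplast genes, mitochondrial genes and noncoding RNAs without a gene name; points are libraries with their replicate number, and bars give the mean ± SD of 3. The 3 *glk* libraries sit above all *Ateaf1-1* libraries for chloroplast genes and below them for mitochondrial genes, and *Ateaf1-1* replicate 2 is the outlying point on the right.

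Across the genome, 2383 genes (12.1% of those tested) were higher in *glk* and 2780 (14.1%) were lower in *glk*, which is the same as higher in *Ateaf1-1*, at a false discovery rate (FDR) under 0.01 and at least 1.5-fold, in edgeR's quasi-likelihood test. In total 26.2% of the genes tested were called, with a median log2 fold change of -0.04 over all genes. Counts of called members in each list below stand against these shares of 12.1% higher and 14.1% lower. Large differences lay mostly on the *Ateaf1-1* side, since 1796 genes were lower in *glk* by more than 1.5 on the log2 scale and 863 were higher. The split moved with the scaling. With TPM, which is not scaled for composition, 640 genes were higher and 3687 lower in *glk*, and higher calls were 14.8% of all calls against 46.2% on TMM-scaled counts, with a median gene at -0.16 to -0.39 in the TPM fits. Without *glk* replicate 1, 2 or 3 the counts were 1250, 1238 and 1174 higher and 1611, 1717 and 1648 lower. No gene was called in opposite directions by TMM-scaled counts and by any other setting.

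The mutated genes were measured first. GLK1 was at 9.0, 9.47 and 10.2 CPM in *glk* and at 64.5, 70.4 and 54.5 CPM in *Ateaf1-1*, and fell by 2.72 ± 0.14 (SE) on the log2 scale (FDR 1.50e-05). GLK2 was at 35.7, 42.4 and 35.3 CPM in *glk* and at 35.4, 47.6 and 33.6 CPM in *Ateaf1-1*, with a log2 fold change of -0.04 ± 0.17 (FDR 0.858), so the count of this gene did not separate the genotypes. An insertion need not lower the number of reads along a gene. EAF1B (chromosome 3, 9074665 to 9085419) was at 11.6, 11.1 and 12.5 CPM in *Ateaf1-1* and 26.1, 20.2 and 19.8 CPM in *glk*, 1.88-fold higher in *glk* (FDR 0.00210). Its neighbour EAF1A (9085720 to 9096689) was 1.92-fold higher in *glk* (FDR 0.00604), a call lost without *Ateaf1-1* replicate 3 or any 1 *glk* replicate. Reads were thus still assigned to both gene identifiers in *Ateaf1-1*, where the deletion left a chimeric gene. Reads of these near-identical genes may be shared between the identifiers, so the values do not show that both copies remained.

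Most genes of the light-harvesting antenna that passed the test were lower in *glk*. Of 21 antenna genes, 11 were lower in *glk*, 3 were higher and 7 did not pass, with a list median of -1.10 against -0.04 over all genes. LHCB proteins belong to photosystem II and LHCA proteins to photosystem I. In 16 of the 21 genes all *glk* libraries lay below all *Ateaf1-1* libraries (29.0% of all genes tested did). Without *glk* replicate 1, 2 or 3 the number lower was 5, 6 and 7, without *Ateaf1-1* replicate 3 it was 8, and on TPM it was 16 to 18. The list median stayed between -1.47 and -0.87 in all settings.

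LHCB1.4, a subunit of the main light-harvesting trimer, was at 4.47, 2.30 and 4.26 CPM in *glk* and at 1183, 1710 and 1030 CPM in *Ateaf1-1*. That is 354-fold lower in *glk* (log2 fold change -8.47 ± 0.40, FDR 1.01e-05), while WT ranged from 4134 to 4746 CPM. The other LHCB1 genes showed nothing of this size. LHCB1.2 was at 512, 414 and 566 CPM in *glk* and 1484, 2590 and 1571 CPM in *Ateaf1-1* (log2 fold change -1.92 ± 0.26, FDR 0.000895), and LHCB1.1, LHCB1.3 and LHCB1.5 had log2 fold changes of -1.28, -1.10 and -1.09, of which only that of LHCB1.3 passed. LHCB1 genes are near-identical, and how reads were split among them is uncertain. LHCB2.4, a partner subunit in the trimer whose promoter is shown above, was at 39.7, 38.4 and 36.5 CPM in *glk* and at 155, 283 and 204 CPM in *Ateaf1-1* (log2 fold change -2.49 ± 0.23, FDR 0.000140). LHCB4.2 and LHCB4.3, minor antenna proteins that link the trimers to the core, had log2 fold changes of -1.64 and -2.53. LHCB4.2 was at 226, 203 and 269 CPM in *glk* and 608, 842 and 725 CPM in *Ateaf1-1*.

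Antenna genes outside the main complexes went the other way. LHCA6, which with LHCA5 joins the chloroplast NADH dehydrogenase-like complex to photosystem I, was at 24.9, 24.6 and 29.4 CPM in *glk* and at 4.43, 4.32 and 4.54 CPM in *Ateaf1-1*, 5.93-fold higher in *glk* (FDR 1.36e-05). LHCA5 and LHCB7, a rare antenna protein, were also higher in *glk*, by 1.38 and 1.11 on the log2 scale. The number of antenna genes higher fell from 3 to 2 when any 1 *glk* replicate was left out. LHCB2.1, LHCB5, LHCB6, LHCB4.1 and LHCA4 did not pass, with log2 fold changes from -1.38 for LHCB6 to -0.36 for LHCA4.

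Nuclear genes for the photosystem cores and electron transport differed less than the antenna list, with a median of -0.41. Of 34, 8 were lower in *glk*, 2 were higher and 24 did not pass, against 14.1% lower and 12.1% higher over all genes tested. In 20 of the 34 all *glk* libraries lay below all *Ateaf1-1* libraries (29.0% of all genes tested did). PETE1, a plastocyanin that carries electrons to photosystem I, was at 16.6, 15.6 and 18.2 CPM in *glk* and 62.9, 87.2 and 75.1 CPM in *Ateaf1-1* (log2 fold change -2.16 ± 0.16, FDR 4.96e-05). Its paralogue PETE2 had a log2 fold change of -0.01 ± 0.15. PSBQ2 of the oxygen-evolving complex and PSAE1 of photosystem I were lower in *glk* by 2.93-fold and 2.24-fold. The 2 genes higher in *glk* encode PSB28 and PSB29, proteins linked to photosystem II assembly: PSB28 was at 46.0, 48.5 and 53.0 CPM in *glk* and 8.70, 9.06 and 8.67 CPM in *Ateaf1-1*, 5.58-fold higher. On TPM, 21 of the 34 were lower in *glk*, and without *glk* replicate 1, 2 or 3 the number was 3, 4 and 4, and without *Ateaf1-1* replicate 3 it was 5.

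Nuclear genes for plastid ribosomal proteins, parts of the protein-synthesis machinery of the chloroplast, were higher in *glk*. All 38 were tested and 36 were higher in *glk*, none was lower, and the median was 1.82. All *glk* libraries lay above all *Ateaf1-1* libraries in 38 of 38 (28.3% of all genes tested did). The list follows a group that the study had chosen on these plants, so it is not independent evidence of its direction. RPL10 and RPL27 did not pass, at 1.08 ± 0.27 and 1.01 ± 0.24 on the log2 scale. The number higher was 32 to 38 without any 1 library and 33 to 35 on TPM.

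AT4G17560 was at 65.8, 70.4 and 72.6 CPM in *glk* and at 11.1, 10.5 and 10.2 CPM in *Ateaf1-1*, a 6.55-fold difference (log2 fold change 2.71 ± 0.12, FDR 7.95e-06). WT ranged from 62.5 to 77.0 CPM, around the *glk* values. RPL4 was at 93.7, 80.9 and 99.6 CPM in *glk* and 15.6, 11.8 and 16.9 CPM in *Ateaf1-1* (6.19-fold), RPL15 was 5.29-fold and RPL24 4.76-fold higher in *glk*. PSRP2 was at 95.8, 99.4 and 96.7 CPM in *glk* and 20.4, 15.2 and 19.8 CPM in *Ateaf1-1*, 5.26-fold higher. Differences were smaller for the cytosolic ribosome. Of 163 genes annotated for cytosolic ribosomal proteins 9 were higher in *glk* and 0 lower (median 0.24), against 12.1% and 14.1% of all genes tested. In 86 all *glk* libraries lay above all *Ateaf1-1* libraries and in 3 below, against 28.3% and 29.0% of all genes tested. The number called higher was 2 without *Ateaf1-1* replicate 3 or any 1 *glk* replicate and 14 without *Ateaf1-1* replicate 2. On TPM the median was -0.21 to -0.19. The median of the plastid ribosomal protein genes stayed between 1.3 and 1.9 in all settings.

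Genes for transcription in the plastid had the same direction. Of 21, 15 were higher in *glk* and 0 lower (median 1.14). SIG3 and SIG2, sigma factors that guide the chloroplast-encoded RNA polymerase to promoters, were 4.24-fold and 3.57-fold higher in *glk*. SIG3 was at 13.7, 14.6 and 14.2 CPM in *glk* and 3.61, 3.61 and 2.79 CPM in *Ateaf1-1*. PTAC10, PTAC14 and FLN1, proteins bound to that polymerase, were higher by 2.04, 1.78 and 1.64 on the log2 scale. SIG1 (-0.45 ± 0.25) and the iron superoxide dismutase gene FSD2 (-0.47 ± 0.16) did not pass. The number higher was 10, 11 and 10 without *glk* replicate 1, 2 or 3 and 6 to 7 on TPM.

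Import, folding and proteolysis genes followed, with 13 of 20 higher in *glk* and 0 lower (median 0.73). CPN60B, a chloroplast chaperonin subunit, was at 168, 148 and 144 CPM in *glk* and 39.7, 19.5 and 40.2 CPM in *Ateaf1-1*, 4.62-fold higher (FDR 0.000627). TOC33, a receptor at the outer envelope for imported proteins, was 3.57-fold higher, while TOC159 and TOC34 had log2 fold changes of 0.12 and 0.19 and did not pass. VAR2, a thylakoid FtsH protease subunit, was at 451, 447 and 460 CPM in *glk* and 221, 209 and 197 CPM in *Ateaf1-1*. Without *glk* replicate 1, 2 or 3 the number higher was 6, 8 and 6, without *Ateaf1-1* replicate 3 it was 8, and on TPM it was 3.

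Pigment synthesis was split between the mutants. Of 28 chlorophyll synthesis genes tested, 12 were higher in *glk* and 3 lower (median 0.43). The 3 lower were PORB, which reduces protochlorophyllide in the light, CAO, which makes chlorophyll b, and HEMA1, which opens the pathway, at log2 fold changes of -1.21, -1.17 and -1.14. None of the 3 passed when any 1 *glk* replicate was left out. On the other side, DVR, the divinyl reductase, was at 41.9, 41.3 and 48.8 CPM in *glk* and 11.4, 4.34 and 7.02 CPM in *Ateaf1-1*, 5.80-fold higher (FDR 0.000642). CHLG, which adds the phytol tail, was 4.27-fold higher, GSA2, an early aminotransferase, 3.66-fold and CHLI2, a magnesium chelatase subunit, 2.58-fold. GUN4 and CHLH, which act at magnesium insertion, had log2 fold changes of -1.51 ± 0.36 and -0.69 ± 0.17 and did not pass. On TPM 4 genes of the list were higher and 6 to 7 lower, so the count of the list rests on the scaling. It also rests on single libraries, with 8, 9 and 6 higher without *glk* replicate 1, 2 or 3, and 5 lower without *Ateaf1-1* replicate 1.

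In carotenoid synthesis 7 of 15 genes were higher in *glk* and PSY, the phytoene synthase at the entry of the pathway, was lower. PSY was at 56.9, 59.5 and 65.5 CPM in *glk* and 118, 133 and 135 CPM in *Ateaf1-1* (2.12-fold, FDR 0.000467). LUT1, a hydroxylase of lutein synthesis, was at 32.0, 32.8 and 31.9 CPM in *glk* and 5.26, 2.37 and 6.24 CPM in *Ateaf1-1* (6.96-fold, FDR 0.000397). The number higher was 4 without *Ateaf1-1* replicate 3 or any 1 *glk* replicate, and 2 on TPM. Calvin cycle and photorespiration genes moved little (median 0.05, and -0.36 on TPM). Of 28, 5 were higher and 1 lower, against 12.1% and 14.1% of all genes tested. When any 1 *glk* replicate was left out 1 was higher and 0 were lower, and without *Ateaf1-1* replicate 3 the number higher was 2. RBCS2B, a small subunit of Rubisco, was at 663, 734 and 785 CPM in *glk* and 193, 359 and 222 CPM in *Ateaf1-1*, and CA1, a carbonic anhydrase, was 2.08-fold lower in *glk*. Neither call held without *Ateaf1-1* replicate 3 or any 1 *glk* replicate.

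Transcripts of the chloroplast genome were higher in *glk* or did not pass. Of 112 tested, 42 were higher in *glk* and 0 lower (median 0.86), and among 44 photosynthesis genes 17 were higher. The largest differences were in the neighbouring genes ndhJ, ndhK and ndhC, subunits of the NADH dehydrogenase-like complex to which LHCA5 and LHCA6 connect photosystem I. ndhJ was at 978, 1075 and 1055 CPM in *glk* and 207, 120 and 268 CPM in *Ateaf1-1* (5.22-fold, FDR 0.000514), ndhC was 4.84-fold and ndhK 4.72-fold higher. Other subunits of the same complex did not pass, such as ndhF at 0.23 ± 0.20 and ndhI at 0.27 ± 0.17 on the log2 scale. The reaction centre genes psaA, psaB and psbA had log2 fold changes of 0.27, 0.36 and 0.70 and did not pass, nor did rbcL at 0.60 ± 0.25. Without *glk* replicate 1, 2 or 3 the number higher among the 44 was 11, 7 and 8, without *Ateaf1-1* replicate 2 it was 23, and on TPM it was 3 to 4. Of 95 mitochondrial genes tested 24 were lower in *glk* and 1 was higher (median -0.93).

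**Figure D3:**
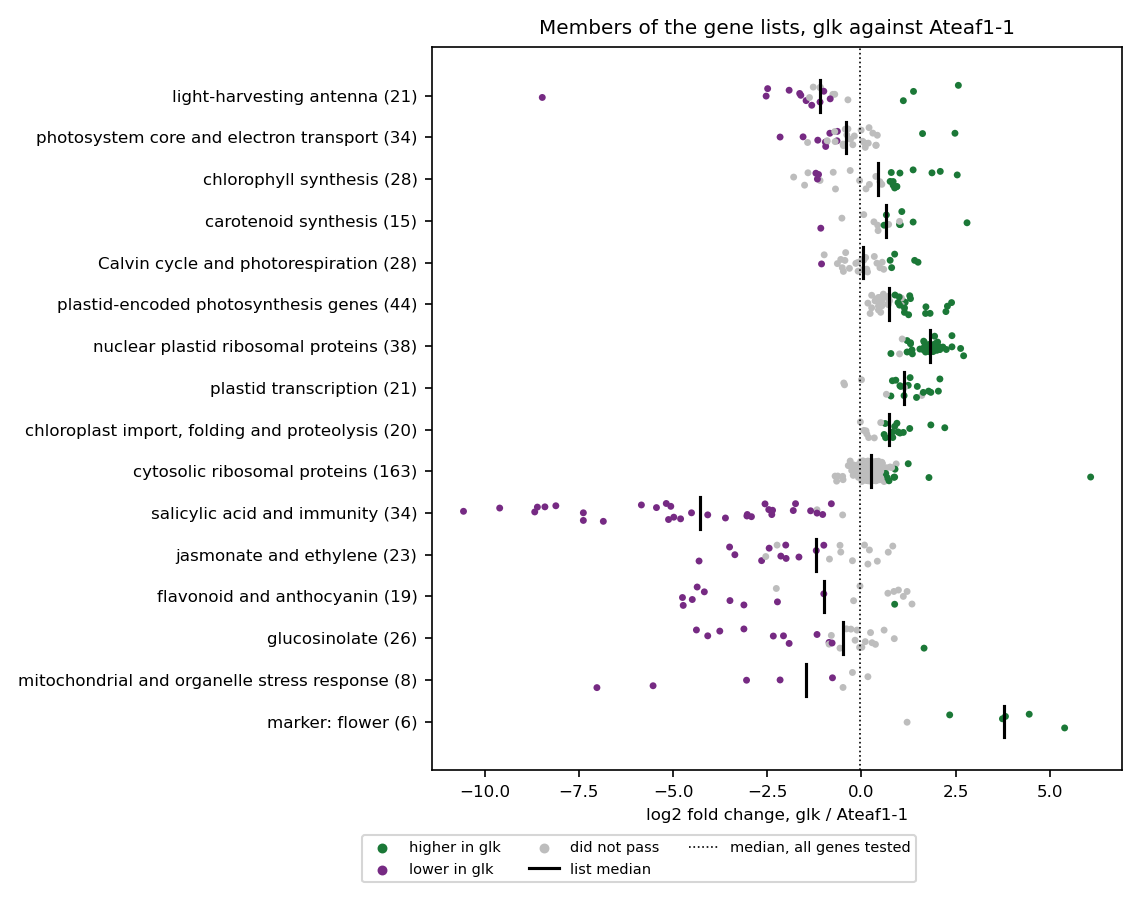
Log2 fold change (*glk* over *Ateaf1-1*) of each member of 16 gene lists, with members tested in brackets; colours give the call, black bars the list median and the dotted line the median of all genes tested. The antenna list sits left of the line, the plastid ribosomal protein list right of it, and the immunity list spreads to -10.56.

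Immunity genes differed on the *Ateaf1-1* side. Of 34 genes of salicylic acid and immunity, 32 were lower in *glk* (higher in *Ateaf1-1*), 0 were higher, and the median was -4.30, or -3.89 with genes at or near 0 counts set to their bound. Salicylic acid is the hormone of resistance to biotrophic pathogens, and many of these genes are its synthesis enzymes, receptors and targets. EDS1B (-1.18 ± 0.37) and RPP4 (-0.50 ± 0.14) did not pass. The number was 29 to 32 without any 1 library and 31 to 33 on TPM.

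PR1, a secreted antimicrobial protein used as the marker of this response, was at 831, 541 and 796 CPM in *Ateaf1-1* and 1.47, 3.73 and 0.42 CPM in *glk*, 389-fold higher in *Ateaf1-1* (FDR 0.000122). WT ranged from 0 to 2.80 CPM and *Atepl1-2*, a second NuA4 mutant, was at 1528 CPM or more. All *Atepl1-2* values given are from the 3 libraries with the same label set as *glk* and *Ateaf1-1*. Its libraries of the other label set are not shown, while WT values pool both sets. PR2, a glucanase, was at 964, 906 and 1028 CPM in *Ateaf1-1* and 4.18, 4.04 and 2.30 CPM in *glk*. ICS1, the main enzyme of salicylic acid synthesis, was at 65.1, 98.8 and 90.8 CPM in *Ateaf1-1* and 2.45, 2.76 and 2.13 CPM in *glk*, 34.7-fold higher. FMO1, which makes the mobile immune signal N-hydroxypipecolic acid, was at 16.1, 24.2 and 17.6 CPM in *Ateaf1-1* and at no more than 1 count per library in *glk*, so it was at least 226-fold higher against a floor of 3 counts per library. UGT76B1, which inactivates that signal, was at least 30.1-fold and WRKY38 at least 196-fold higher. WRKY62 was at least 13.03-fold higher, a call lost without *Ateaf1-1* replicate 3 or any 1 *glk* replicate. The receptors NPR1, NPR3 and NPR4 were lower in *glk* by much less, at -0.80, -2.56 and -1.75 on the log2 scale.

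**Figure D4:**
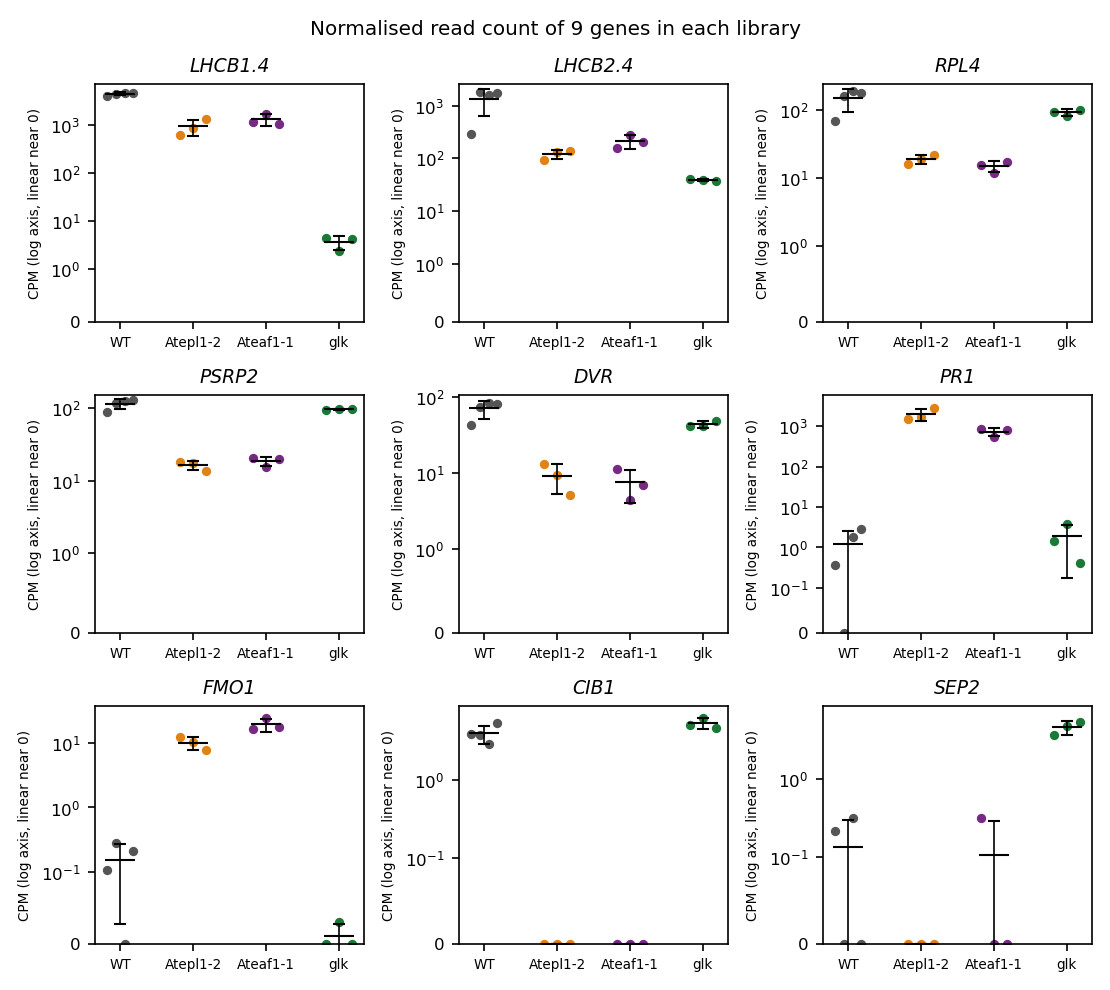
Normalised read count (CPM, log axis that turns linear near 0) of 9 genes in libraries of WT (4), *Atepl1-2* (3, same label set as *glk*), *Ateaf1-1* (3) and *glk* (3). Points are libraries, bars the mean ± SD. LHCB1.4 and LHCB2.4 are lowest in *glk*, RPL4, PSRP2 and DVR are lowest in *Ateaf1-1* and *Atepl1-2*, PR1 and FMO1 are high in both of those and near 0 in *glk* and WT, CIB1 is at 0 in both of those, and SEP2 is high only in the *glk* libraries.

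Families of immune receptors and regulators showed the same direction. They were picked from the annotation after the values were seen, and the shares stand against 14.1% of all genes lower and 12.1% higher in *glk*. Of 41 WRKY genes, 23 (56.1%) were lower in *glk* and 0 higher, with a family median of -2.85. Of 54 disease resistance proteins of the TIR-NBS-LRR class, which detect pathogen effectors inside the cell, 36 (66.7%) were lower and 0 higher. Among cysteine-rich receptor-like kinases 22 of 30 (73.3%) were lower, led by CRK37 at -9.47, and CRK21 alone was higher, at 1.02. Receptor like proteins of the cell surface had 31 of 47 (66.0%) lower and RLP57 higher. NAC transcription factors had 23 of 50 lower, and berberine bridge enzyme-like proteins, oxidases of the cell wall and secondary metabolism, 13 of 18. Families on the other side were the plasma membrane aquaporins (7 of 12 higher, 0 lower), the FKBP-like isomerases (7 of 12 higher, 0 lower), the alpha-expansins, which loosen walls of growing cells (5 of 12 higher, 0 lower), and the histones (17 of 41 higher, 1 lower).

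**Figure D5:**
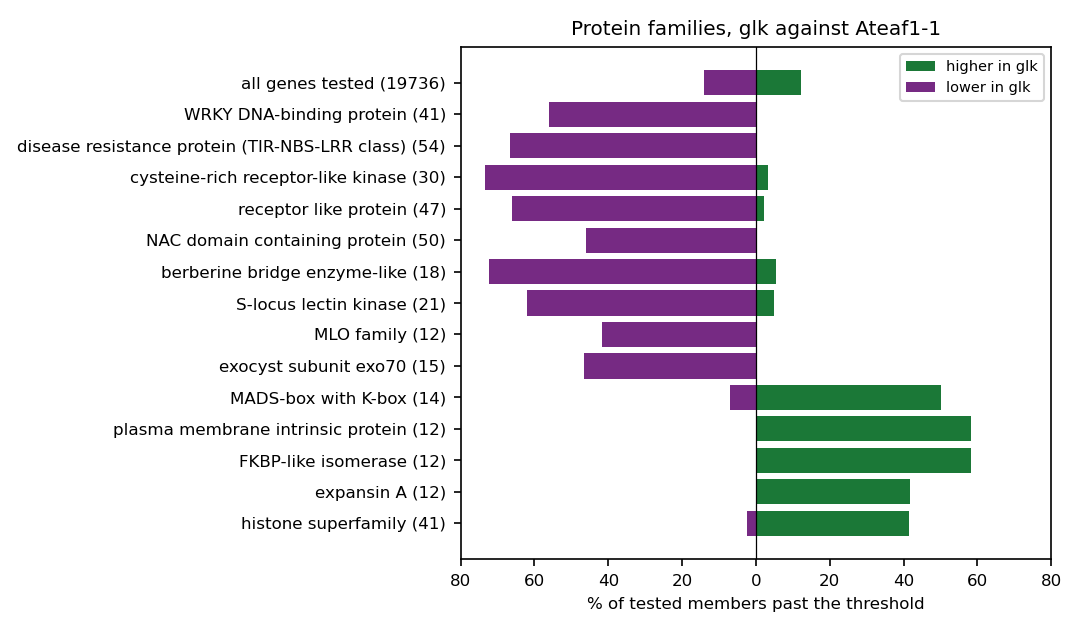
Percentage of tested members of protein families (number in brackets) that were higher (right) or lower (left) in *glk*, with all genes tested on top. The receptor and WRKY families reach 56.1% to 73.3% on the left, and aquaporins and FKBP-like isomerases 58.3% on the right.

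The 6 nuclear genes with the largest falls in *glk* by fitted log2 fold change had 0 counts in all *glk* libraries. Where a group is at 0 counts the fitted value has no limit from the data, so this ranking favours such genes. The folds given for PR1 and RLP39 exceed most of the bounds below. AT2G44240, annotated as a NEP-interacting protein, was at 401, 190 and 196 CPM in *Ateaf1-1*, at least 3074-fold higher, and at 0.646 CPM or less in WT. RLP20 was at least 208-fold higher in *Ateaf1-1*, AT1G66465, which has no described function, at least 200.4-fold, AT1G33950, an avirulence-induced GTPase family member, at least 114-fold, the beta-glucosidase BGLU31 at least 104-fold and the lectin kinase AT3G45330 at least 70.8-fold.

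Next to the edited locus, 3 receptor like protein genes were high in *Ateaf1-1*, and they were singled out after their values were seen. RLP39 (chromosome 3, 9099060 to 9101991), RLP40 and RLP41 (9110057 to 9112936) lie beyond EAF1A on the same chromosome. RLP41 was at 81.1, 133 and 92.3 CPM in *Ateaf1-1* and 0.373, 0.590 and 0.448 CPM in *glk*, 217-fold higher (FDR 6.58e-06), and RLP39 was at least 270-fold higher. In *Atepl1-2*, a mutant of another NuA4 subunit, RLP41 was at 79.2, 69.6 and 41.9 CPM and in WT at no more than 1.52 CPM. VAMP728, which lies between EAF1A and RLP39, had a log2 fold change of -0.42 ± 0.25 and did not pass.

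Hormone, pigment and defence metabolite genes extended the *Ateaf1-1* side. Over all genes tested 14.1% were lower in *glk* and 12.1% higher. Of 23 jasmonate and ethylene genes 11 were lower in *glk* and 0 higher, and 7 were lower without *glk* replicate 1. JAZ1, a repressor induced by jasmonate, was at 19.3, 34.0 and 37.3 CPM in *Ateaf1-1* and 3.25, 2.02 and 2.69 CPM in *glk* (11.3-fold), and OPR3, a jasmonate synthesis enzyme, was 5.45-fold higher in *Ateaf1-1*. Defensin PDF1.2 did not pass (0.17 ± 0.80). In the flavonoid and anthocyanin list 9 of 19 were lower in *glk* and MYBL2, a repressor of anthocyanin synthesis, was higher, with no gene of the list higher without *Ateaf1-1* replicate 1, without *glk* replicate 1 or 2, or on TPM. The late enzymes were those that moved: DFR was at 11.9, 11.5 and 17.0 CPM in *Ateaf1-1* and 0.905, 0.0932 and 0.476 CPM in *glk* (26.6-fold, FDR 0.000355), and its activator PAP1 was 17.9-fold higher in *Ateaf1-1*. The early enzymes TT4 (-0.21), TT5 (0.70) and TT7 (-0.04) did not pass.

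Glucosinolate genes had 10 of 26 lower in *glk* and 1 higher, and the indole branch led. CYP79B2, its entry enzyme, was at 140, 162 and 119 CPM in *Ateaf1-1* and 9.08, 7.39 and 8.40 CPM in *glk* (16.9-fold), and CYP83B1 was 5.07-fold higher in *Ateaf1-1*. MYB29, a regulator of the aliphatic branch, was higher in *glk* by 1.66 on the log2 scale. Without *glk* replicate 1, 2 or 3 the number lower was 6, 6 and 7. Of 8 genes tested for mitochondrial and organelle stress, 5 were lower in *glk* and 0 higher (median -1.47), with 3 to 4 lower without any 1 library. Among the 5, AOX1D and OM66, markers of mitochondrial stress, were 130-fold and 46.1-fold higher in *Ateaf1-1*. ARD3, an acireductone dioxygenase of methionine recycling, was 70.5-fold higher in *Ateaf1-1*, while its paralogues ARD4 and ARD1 were higher in *glk*, by 1.72 and 1.06. Without *glk* replicate 3 the call of ARD1 was lost. Of 14 genes of senescence and chlorophyll breakdown tested, 5 were lower in *glk* and 2 higher (median -0.36), against 14.1% and 12.1% of all genes tested. SAG13, the member furthest to the *Ateaf1-1* side, was 211-fold higher in *Ateaf1-1*.

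Floral genes were among the largest rises in *glk*. Leaves 5 and 6 are not flowers, yet 5 of 6 flower markers were higher in *glk* (median 3.78), and their summed level was 16.0, 24.5 and 27.5 CPM in *glk* against 4.87, 1.39 and 1.24 CPM in *Ateaf1-1* and 0.76 to 2.58 CPM in WT. SEP2, a floral identity gene, was at 3.60, 4.78 and 5.38 CPM in *glk* and 0.31, 0 and 0 CPM in *Ateaf1-1* (FDR 0.00201), a call lost without *glk* replicate 2 or 3. AP3, which specifies petals and stamens, was at 2.18, 2.79 and 3.25 CPM in *glk* and 0.29, 0 and 0.073 CPM in *Ateaf1-1*, a call lost without *Ateaf1-1* replicate 3 or any 1 *glk* replicate. AG, which specifies stamens and carpels, did not pass (1.21 ± 0.48). Without *glk* replicate 1, 2 or 3 the number of flower markers that passed was 2, 1 and 1, and without *Ateaf1-1* replicate 3 it was 2. The part of floral tissue in the other differences was not tested.

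Among the 6 nuclear genes with the largest rises in *glk* by fitted log2 fold change, ATA27, A7 and LTP12 are known from the tapetum of the anther. ATA27 was at 2.50, 19.9 and 14.8 CPM in *glk* and had no more than 1 count in any *Ateaf1-1* library, at least 168-fold higher in *glk*, with *glk* replicate 1 lowest. A7 was at least 35.9-fold and LTP12 at least 34.0-fold higher, and all 3 were at 0 CPM in *Atepl1-2*. TSM1, SHT and CYP98A8, enzymes that make the phenolamides of the pollen coat, were at least 45.6-fold, 24.2-fold and 14.9-fold higher in *glk*, and were chosen after their values were seen. AT1G68875 (at least 51.3-fold) and AT3G09162 (at least 25.9-fold) have no described function. The call of AT1G68875 was lost without *Ateaf1-1* replicate 3 or *glk* replicate 2 or 3, that of CYP98A8 without *glk* replicate 2 or 3 and that of SHT without *glk* replicate 2.

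CIB1, a cryptochrome-interacting factor that promotes flowering, was different from these. It was at 5.11, 6.27 and 4.65 CPM in *glk* and at 0 counts in all *Ateaf1-1* libraries, at least 72.5-fold higher in *glk*. In all *Atepl1-2* libraries of the same label set it was at 0, and in WT at 2.86 to 5.31 CPM. FLC, the repressor of flowering, was at 8.26, 13.8 and 11.3 CPM in *Ateaf1-1* and 3.09, 2.95 and 3.14 CPM in *glk* (log2 fold change -1.86 ± 0.21, FDR 0.000379), and SOC1, which FLC represses, was higher in *glk* by 1.33. AP1 and SPL15 were higher in *glk* by 4.32 and 4.38, but AP1 was lost without *Ateaf1-1* replicate 3 or *glk* replicate 2 or 3, and SPL15 without any 1 *glk* replicate. STM, a meristem gene normally silent in leaves, was at 4.90, 6.27 and 6.11 CPM in *glk* and 2.30, 2.25 and 2.04 CPM in *Ateaf1-1*, and at 0 in all WT libraries.

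Markers of other cell types moved less. Xylem markers had 4 of 6 higher in *glk*, with summed levels of 28.7 to 40.6 CPM against 11.4 to 14.8 CPM in *Ateaf1-1*, and 2 passed without *glk* replicate 2 or 3. Epidermis markers had 2 of 7 higher, and 1 without *Ateaf1-1* replicate 3 or *glk* replicate 1 or 3, among them the wax enzyme CER1 at 134, 138 and 197 CPM in *glk* against 30.4, 19.7 and 15.2 CPM. Of 5 mesophyll markers only CA1 passed, and their summed level was 8079 to 8796 CPM in *glk* and 7984, 15172 and 9220 CPM in *Ateaf1-1*, highest in replicate 2, the library that stood apart. Root markers had 1 of 3 tested lower in *glk*, PYK10, which was lost without *Ateaf1-1* replicate 1 or 3 or any 1 *glk* replicate. In the NuA4, SWR1 and H2A.Z list 2 of 25 were higher in *glk* and 1 lower, shares below the 12.1% and 14.1% of all genes tested. They were the H2A.Z genes HTA11 (1.37 ± 0.13) and HTA8 (0.91 ± 0.17) and the SWR1 subunit ARP6 (-1.09 ± 0.20). The calls of HTA8 and ARP6 were lost when any 1 *glk* replicate was left out, and that of HTA8 also without *Ateaf1-1* replicate 3, while without *Ateaf1-1* replicate 2 the number lower was 4. Cell division genes had 6 of 22 higher and 0 lower in *glk*, against 12.1% and 14.1% of all genes tested. The number higher was 2 without *Ateaf1-1* replicate 3 or any 1 *glk* replicate and 12 without *Ateaf1-1* replicate 1.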

How the data were processed

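RNA was measured in rosette leaves of *glk* and *Ateaf1-1*, 3 libraries each. Per the labels and the study's methods, libraries were made with ribosomal RNA removed, reads were trimmed with BBDuk2 and the authors deposited expected counts per gene and TPM from Salmon 0.13.1 on Araport11, with sequence and GC bias correction, without further normalization of the counts. Near-identical genes can share reads in such estimates.

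Here the expected counts were rounded to whole numbers, genes with low counts were removed (filterByExpr), and *glk* was tested against *Ateaf1-1* with edgeR 4.0.16 (glmQLFit, TMM) in R 4.3.3, with Benjamini-Hochberg adjustment over 19736 genes, an FDR under 0.01 and at least 1.5-fold. The study itself used limma with these thresholds. Positive values are higher in *glk*. The SE is the log2 fold change over the root of the F value. CPM of WT and *Atepl1-2* libraries were put on the same scale with the same reference library and genes, as a description. For *Atepl1-2* only the libraries with the same label set as *glk* and *Ateaf1-1* are described. Where a group had at most 3 counts in every library, the fold is a lower bound against 3 counts per library. Nothing in the labels says that the libraries pair. P-values set each difference against the spread between these libraries. Spread between independent lines of a genotype was not sampled. Shares were compared by exact permutation. Promoters came from RefSeq TAIR10.1, and gene coordinates are of that build. Alternatives were DESeq2 1.42.0, limma 3.58.1 on voom values and on log2(TPM + 1) or log2(TPM + 0.1), other filters and thresholds, other libraries for the spread, a replicate term and leaving out each library. Fitting was tested on simulated data.

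Genes named are, in each list, the 5 largest changes past the threshold and members needed as those that did not pass. The 6 largest nuclear rises and falls with at least 10 counts in every library of the higher group and no overlap are also named. They were ranked by fitted log2 fold change, not by the lower bounds. Other genes were chosen after their values were seen. Not all of these are marked so where they appear, for example LHCB4.2, LHCA5 and LHCB7. Gene lists, families and motifs were chosen with earlier results of these data known. Chloroplast genes are named after the study's gene tables. The ChIP-seq summary holds no *glk* or *Ateaf1-1* library and was not used.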

Additional observations from a re-analysis of the deposited data

Results flagged for a closer look

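WT is the only group of 4 libraries with values given above, and 22 genes were checked in it for a library far from the other 3 by Dixon's test. It picks out about 1 in 20 groups by chance, and 5 of 22 were picked out. WT replicate 4, the only WT library that carries the same label set as *glk* and *Ateaf1-1*, was the outlying library for 3 of them: LHCB2.4 was at 291 CPM there, below the other 3, FLC at 3.94 CPM and RLP41 at 1.52 CPM, above the other 3. EAF1B was highest in WT replicate 7 (24.2 CPM) and AT4G17560 lowest in WT replicate 5 (62.5 CPM). No WT library enters the comparison of *glk* with *Ateaf1-1*.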

How the results depend on the processing

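Genes higher in *glk* numbered 2383 in the chosen fit, against 640, 807 and 728 in limma on log2(TPM + 1), log2(TPM + 0.1) and log2(TPM + 1) with a mean TPM of 1 or more, and 863 above an absolute log2 fold change of 1.5. Genes lower in *glk* numbered 2780, against 4662 on log2(TPM + 0.1) and 1796 above 1.5. Without each replicate in turn, higher counts ranged from 1174 to 2775 and lower counts from 1611 to 3129. DESeq2, DESeq2 size factors, no filter, limma-voom, an FDR under 0.05, leaving out organelle genes and pooling the spread over 10 or 13 libraries kept both counts within 1.5 times. With a replicate block there were 1922 higher and 2367 lower. Deviations of same-numbered libraries correlated at 0.006, 0.086 and -0.061, and those of other-numbered libraries of different genotypes at -0.109 to 0.108. With 3 libraries per group these values cannot decide whether the numbers pair the samples. The chloroplast share difference kept its direction as a share of TPM, without psbA and without each library, ranging from 12.6 to 17.63 points without 1 library. The mitochondrial share difference also kept its direction, at -0.96 points as a share of TPM and -0.93 to -0.83 points without 1 library. Of 147 genes followed, none changed sign in any of the 19 settings in which it was tested. Of the 146 called, 45 lost the call without at least 1 library and 48 on at least 1 TPM setting. Depth limits genes at 0 counts to the bounds given.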

Other observations

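Annotation groups outside the lists also separated the mutants, chosen after their values were seen. Over all genes tested, 12.1% were higher in *glk* and 14.1% lower. Of 2211 genes tested whose annotation locates the product in the chloroplast, 633 (28.6%) were higher in *glk* and 190 (8.59%) lower, and for the stroma the numbers were 126 and 14 of 264. Fatty acid biosynthesis had 19 of 43 genes higher in *glk* and 4 lower, and nucleosome assembly 16 of 48 higher and 0 lower. Of 251 genes annotated with defense response 127 (50.6%) were lower in *glk* and 10 (3.98%) higher. Of 21 clock genes tested 3 were higher in *glk* and 1 lower (median -0.10), and the number higher was 1 to 4 without any 1 library. Among them PRR9 was at 47.6, 41.9 and 47.0 CPM in *glk* and 13.8, 10.8 and 11.5 CPM in *Ateaf1-1* (log2 fold change 1.92 ± 0.14), while LHY and GI, at -0.00 ± 0.50 and -0.11 ± 0.40, did not pass.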
